A study of Mus musculus with 8 samples.

Results

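Long-chain fatty acids enter metabolism only after they are joined to coenzyme A, a step carried out by acyl-CoA synthetases. The ACSL enzymes, the related bubblegum enzyme ACSBG1 and the fatty acid transport proteins of the SLC27 family all have this activity, and the enzyme that does the work is thought to steer the acyl-CoA towards oxidation, storage in lipid droplets or membrane phospholipids. CD36 is a surface receptor that binds long-chain fatty acids and aids their uptake, best known from fat cells, muscle, macrophages and small vessels.

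The genes described here are 10 members of these families: Acsl1, Acsl3, Acsl4, Acsl5, Acsl6, Acsbg1, Slc27a1, Slc27a3, Slc27a4 and Cd36. They were taken by gene symbol, from the name printed on the array or the platform's symbol, among non-control spots, which gave 19 probes of the 41174 on the array. The set was drawn up with the difference between the 2 lines known, so its values are given as a description, with standard errors and calls of the common fit but no test of the members.

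The study compared CT26, a mouse colon carcinoma line of BALB/c origin that is labelled as a poor former of liver metastases, with CT26-FL3, a highly metastatic line obtained from it by repeated selection in the livers of mice. Per the labels' protocols the selected cells were released from excised liver lesions with enzymes and kept in culture for a short time to lose stromal cells. Both lines carry the same labels for strain and sex and were grown in the same serum-containing medium. Total RNA of 4 samples per line was labelled with the dye Cy3, and each sample was read on a 1-colour Agilent array. Replicates are numbered as in the sample names, while the titles number the CT26-FL3 samples 2 to 5. The labels name no separate cultures, so the spread between the samples may be technical. As 1 selected line was set against 1 parent, the effect of selection and any other difference of that line cannot be told apart.

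Values below are scaled intensities: each array's background-subtracted intensity was multiplied so that the 75th percentile of its probes came to 894 units, the mean of the 8 arrays. Log2 differences are CT26-FL3 minus CT26 with the standard error (SE) of the limma fit over all kept probes (n = 4 per line). A probe was kept when it lay above a detection limit on at least 4 arrays. The limit was set from the standard deviations that the negative control spots each carry, not from the spread between those spots. That limit came to between 14.1 and 25.7 scaled units. Levels of different probes are not compared, since probes differ in how they bind.

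Across genes, which are not independent replicates, pairs of arrays had r of 0.996 to 0.998 within a line and 0.982 to 0.984 between lines. Of the colon epithelial markers, Krt8, Krt18, Krt20, Cdx2 and Lgals4 were above the limit on all 8 arrays, and Cdh1, Epcam, Krt19, Vil1 and Cdx1 were not above it on any. The epithelial markers' summed level was 1639 to 1730 units in CT26 and 3368 to 3587 in CT26-FL3. Such a sum is weighted towards bright probes, here Krt20 (means of 1038 units in CT26 and 1604 in CT26-FL3) and Krt8 (219 and 1023 units). All 5 epithelial markers tested were higher in CT26-FL3 at an adjusted p of 0.05 in the limma fit, with a median log2 difference of 1.07. Among all genes 23.8% were higher at that threshold.

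Of the 19 probes 16 were kept, and they covered 9 of the 10 genes. In the fit over all 23068 kept probes, 48.3% passed an adjusted p of 0.05 (22.9% higher and 25.4% lower in CT26-FL3). Of the 16 probes 7 were called higher, 6 lower and 3 were not called. Among those called higher, the Acsl6 probes A_51_P518823 and A_52_P352187 passed the filter through CT26-FL3 alone, so that they had to differ. The 4 arrays of one line lay beyond all 4 of the other for 46% of all kept probes, 21.9% with CT26-FL3 higher and 24.2% with it lower, and for 6 and 5 of the member probes. These Acsl6 probes are among the 6 as well. By the brightest probe of each gene, 3 of the 9 genes were called higher and 5 lower, where 48.8% of all 15097 genes were called (23.8% higher and 25% lower). The lines did not overlap for 7 of the 9, against 47.4% of all genes (23.2% higher and 24.2% lower). As the members were chosen with this contrast known, nothing is read from these counts.

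**Figure D1:**
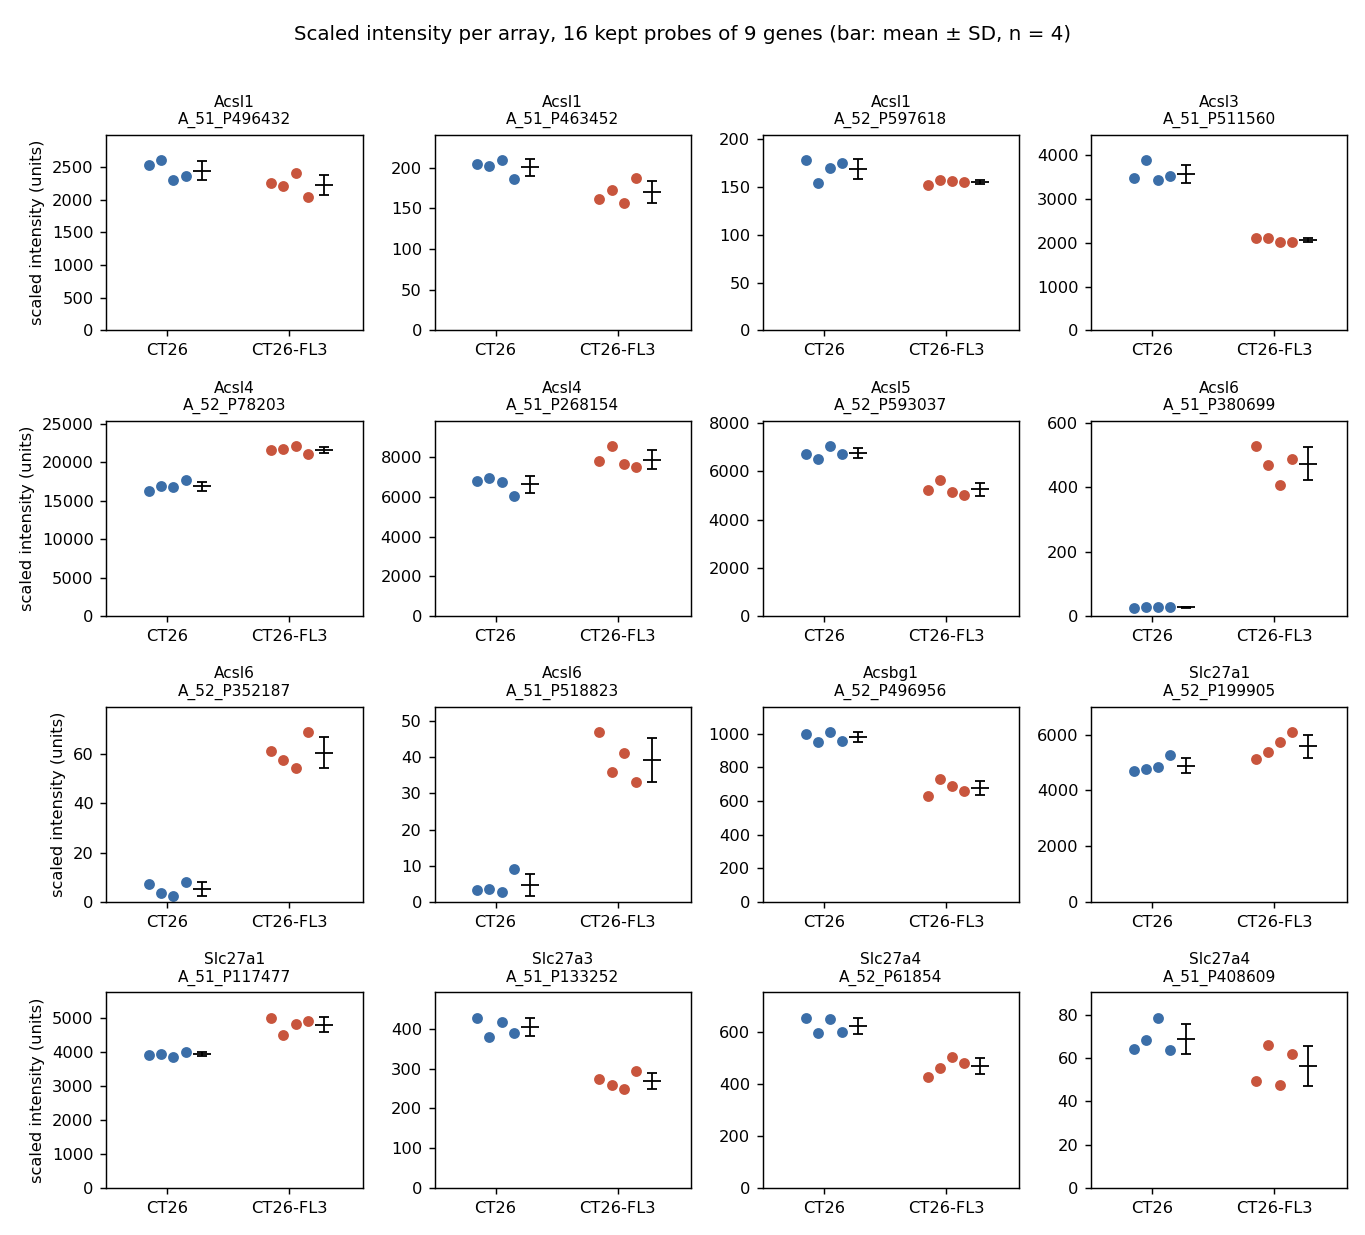
Scaled intensity (y axis, linear, from 0) of the 16 kept probes in each of the 4 CT26 and 4 CT26-FL3 arrays, with the mean and SD of each line. The brightest Acsl6 probe lies between 26.4 and 29.6 units in CT26 and between 407 and 528 in CT26-FL3, while for the other genes the lines stay within a factor of 1.73 of each other.

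Acsl6 showed the difference that dominated the set. ACSL6 is the long-chain synthetase known chiefly from brain, where it is needed for normal levels of the omega-3 fatty acid docosahexaenoic acid. On its brightest probe CT26 replicates 1 to 4 had 26.4, 29.6, 29.2 and 28.3 units, and CT26-FL3 replicates 1 to 4 had 528, 471, 407 and 489.6 units. The lowest CT26-FL3 array was thus far above the highest CT26 array, and all CT26 arrays lay close to the detection limit, on its upper side. The log2 difference was 4.06 (SE 0.08), or 16.6-fold. This was the rise of rank 10 among all kept probes. It was 4.16 in replicates 1 and 2 alone and 3.96 in replicates 3 and 4 alone.

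The size of this fold rests on the dim CT26 values. When 50 units were added to every scaled value, so that low readings weighed less, the log2 difference was 2.74, or 6.66-fold. In the authors' deposited table of probe-centred log2 values the same probe stood at -2.16, -1.89, -1.92 and -1.97 in CT26 replicates 1 to 4. The authors' deposited table had it at 2.25, 2.09, 1.89 and 2.13 in CT26-FL3 replicates 1 to 4.

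The array holds 4 probes for Acsl6, and they did not give the same picture. The brightest one (A_51_P380699) and a dimmer one (A_52_P352187) were designed on the same RefSeq transcript, and the other 2 on another transcript record. The dimmer RefSeq probe read 60.9, 57.5, 54.0 and 68.7 units in CT26-FL3 replicates 1 to 4 and at most 7.98 units in CT26, where it was at or below the limit on every array. It was therefore at least 3.30-fold higher in CT26-FL3. For this bound the CT26 mean, on the log2 scale, was taken from the CT26-FL3 mean after each CT26 reading had been replaced by the lowest signal of any probe above the limit on that array, unless the reading itself was greater.

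The first probe of the other record (A_51_P518823) read 33.1 to 46.9 units in CT26-FL3 and at most 9.18 in CT26, again not above the limit there, and was at least 2.14-fold higher. The second (A_52_P204459) stayed below the limit in both lines on every array, with 3.16 to 6.66 units in CT26-FL3. Its spot on CT26 replicate 1 was marked as failed and left out. The 2 dimmer kept probes passed the filter through CT26-FL3 alone, so that they had to differ, and the remaining one gave no measurement in either line. Only the brightest probe was above the limit in both lines.

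**Figure D2:**
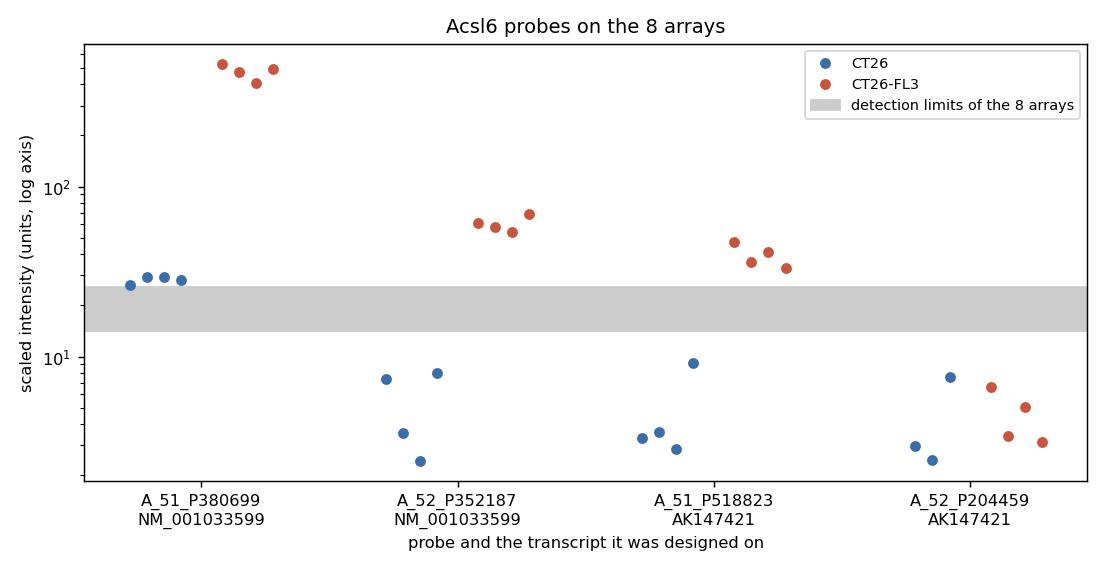
Scaled intensity (y axis, log scale) of the 4 Acsl6 probes on each array, with the range of the arrays' detection limits, 14.1 to 25.7 units, as a grey band. In CT26 the leftmost probe lies from 26.4 to 29.6 units and the others below the band, in CT26-FL3 3 probes lie above it, and the rightmost probe lies below it in both lines.

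RefSeq (GRCm38.p6) lists 3 transcription starts for Acsl6, and the files do not say which of them the lines use, so the 300 bases around each are shown. Every window runs from 250 bases before to 50 bases after the start and is on the plus strand. Capitals mark matches on either strand to the GC box GGGCGG, the CCAAT box CCAAT and the AP-1 site TGANTCA.

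Acsl6 start 1, chr11:54303574-54303873: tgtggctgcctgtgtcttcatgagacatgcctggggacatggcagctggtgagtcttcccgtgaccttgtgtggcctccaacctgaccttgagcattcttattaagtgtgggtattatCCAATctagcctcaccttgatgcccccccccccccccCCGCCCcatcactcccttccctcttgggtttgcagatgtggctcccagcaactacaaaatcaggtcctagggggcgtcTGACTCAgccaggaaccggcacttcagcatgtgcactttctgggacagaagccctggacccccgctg

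Acsl6 start 2, chr11:54303954-54304253: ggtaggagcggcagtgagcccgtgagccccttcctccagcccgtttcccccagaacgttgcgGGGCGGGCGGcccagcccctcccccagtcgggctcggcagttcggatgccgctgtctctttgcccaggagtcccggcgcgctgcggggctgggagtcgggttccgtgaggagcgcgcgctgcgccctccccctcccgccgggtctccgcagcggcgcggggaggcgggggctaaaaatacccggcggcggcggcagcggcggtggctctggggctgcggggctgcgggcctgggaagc

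Acsl6 start 3, chr11:54314653-54314952: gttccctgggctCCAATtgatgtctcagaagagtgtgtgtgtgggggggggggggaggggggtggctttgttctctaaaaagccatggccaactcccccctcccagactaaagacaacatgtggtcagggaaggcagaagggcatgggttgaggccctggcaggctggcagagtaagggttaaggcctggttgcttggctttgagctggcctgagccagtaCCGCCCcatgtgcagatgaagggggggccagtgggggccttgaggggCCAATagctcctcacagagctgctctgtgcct

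The second Acsl6 window held 76% G and C and a pair of overlapping GC boxes, while start 1 and start 3 held 58% and 60.3%. The median G and C content over all windows was 52.7%. The AP-1 match in the first window began at its position 234. Of the 32851 windows of this length in the RefSeq table, 35.7% held a GC box, 37.4% a CCAAT box and 7.81% an AP-1 site.

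Acsl3 was the member with the largest fall. ACSL3 sits on the endoplasmic reticulum and on lipid droplets and is known to be needed for droplet formation. CT26 replicates 1 to 4 had 3474, 3883, 3434 and 3528 units, and CT26-FL3 replicates 1 to 4 had 2105, 2115, 2019 and 2026 units. There was no overlap of the lines, and the CT26-FL3 arrays lay close together. The log2 difference was -0.79 (SE 0.05), which makes CT26-FL3 1.73-fold lower. It was -0.80 in replicates 1 and 2 and -0.78 in replicates 3 and 4.

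The single Acsl3 window of the RefSeq table is shown beside those of Acsl6, as the gene at the other end of the set. It lies on the plus strand, held 74% G and C, and carried 5 GC boxes and 1 CCAAT box in capitals, the CCAAT box directly followed by the last GC box.

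Acsl3 start, chr1:78657575-78657874: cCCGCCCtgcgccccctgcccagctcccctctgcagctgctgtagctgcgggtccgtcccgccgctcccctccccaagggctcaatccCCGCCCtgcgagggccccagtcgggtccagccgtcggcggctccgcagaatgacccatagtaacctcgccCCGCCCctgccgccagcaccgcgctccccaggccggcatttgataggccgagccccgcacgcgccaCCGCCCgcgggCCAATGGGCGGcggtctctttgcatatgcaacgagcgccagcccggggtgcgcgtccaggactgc

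The RefSeq table held 15 windows for the 10 genes. A GC box was found in 11 of them and in 35.7% of all windows, and a CCAAT box in 10 and in 37.4% of all. The AP-1 site was in 1, at the first start of Acsl6, and in 7.81% of all. The TATA box TATAAA was in 0 of the 15 and in 13.6% of all windows. The PPAR response element, AGGTCA repeated after a spacer N, was in 0 of the 15 and in 0.0396% of all, and the sterol response element TCACNCCAC was in 1, at the second start of Acsl1, and in 1.24% of all. The E-box CACGTG was in 1, at a start of Slc27a1, and in 7.15% of all. These matches describe the letters of the windows and not binding.

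Acsl4 was higher in CT26-FL3. ACSL4 prefers arachidonic acid and other polyunsaturated fatty acids and is known to make cells sensitive to ferroptosis, a form of death by lipid peroxidation. On its brighter probe CT26 replicates 1 to 4 had 16255, 16911, 16747 and 17692 units and CT26-FL3 replicates 1 to 4 had 21527, 21754, 22070 and 21029 units. The lines did not overlap, with a log2 difference of 0.35 (SE 0.05), or 1.28-fold. The other probe ran from 6015 to 6938 units in CT26 and from 7479 to 8534 in CT26-FL3, also without overlap, and differed by 0.25 (SE 0.06). The call of that other probe was lost when all probes of the array were tested without a filter.

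Acsl5 was lower in CT26-FL3. ACSL5 is found on mitochondria and the endoplasmic reticulum and is abundant in intestine and liver. CT26 replicates 1 to 4 had 6713, 6529, 7042 and 6722 units and CT26-FL3 replicates 1 to 4 had 5239, 5655, 5134 and 5030 units. Again the lines did not overlap, and the log2 difference was -0.36 (SE 0.05), 1.28-fold lower. It was -0.28 in replicates 1 and 2 and -0.44 in replicates 3 and 4.

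Acsl1, the main long-chain synthetase of heart, liver and fat tissue, differed little. Its brightest probe ran from 2299 to 2601 units in CT26 and from 2044 to 2403 in CT26-FL3, so the lines overlapped, with a difference of -0.14 (SE 0.07) that was not called. The mean of the gene's 3 probes, -0.17, was called. The other 2 probes gave -0.24 (SE 0.07), which was called, and -0.12 (SE 0.06), which was not. The lines overlapped on all 3 probes. The call of -0.24 was lost with the sample names' replicate number as a block and with no filter on dim probes. The probe with -0.12 was called when CT26 replicate 2 was left out (-0.17).

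Acsbg1 was lower in CT26-FL3. ACSBG1 activates long and very long chains and is known from brain, adrenal gland and testis. CT26 replicates 1 to 4 had 999.99, 950.4, 1009.8 and 956 units and CT26-FL3 replicates 1 to 4 had 628, 729, 688 and 662 units. Every CT26 array was above every CT26-FL3 array, and the log2 difference was -0.53 (SE 0.06), 1.45-fold lower.

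Among the transporters Slc27a3 differed most. The SLC27A3 protein has acyl-CoA synthetase activity, and its part in fatty acid uptake is less clear. CT26 replicates 1 to 4 had 427, 380.3, 418 and 389 units and CT26-FL3 replicates 1 to 4 had 273, 259, 249 and 294 units. All CT26-FL3 arrays were below all CT26 arrays, and the log2 difference was -0.59 (SE 0.07).

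Slc27a4, the fatty acid transport protein of intestine and skin, was lower on its brighter probe. CT26 replicates 1 to 4 had 653, 595, 648 and 599 units and CT26-FL3 replicates 1 to 4 had 428, 461, 501 and 478 units. The lines did not overlap, with a difference of -0.42 (SE 0.06). The dim second probe ran from 64.0 to 78.5 units in CT26 and from 47.6 to 66.1 in CT26-FL3. The lines overlapped there, and its difference of -0.30 (SE 0.12) was not called. It was called without CT26-FL3 replicate 2 (-0.38), the highest array of its line, and under a filter that asked for all 8 arrays above the limit.

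Slc27a1, the transport protein of muscle and fat cells that responds to insulin, went the other way. On the probe A_51_P117477 CT26 replicates 1 to 4 had 3918, 3935, 3858 and 3997 units and CT26-FL3 replicates 1 to 4 had 4999, 4509.7, 4813 and 4904 units. The lines did not overlap, with a difference of 0.29 (SE 0.05), 1.22-fold. The second probe (A_52_P199905), which is brighter and assigned to the gene by the platform alone, ran from 4679 to 5274 units in CT26 and from 5116 to 6084 in CT26-FL3. The lines overlapped on it and it differed by 0.19 (SE 0.07). Its call was lost when any one of CT26 replicates 1, 2 and 3 or CT26-FL3 replicates 2, 3 and 4 was left out, with differences from 0.15 to 0.21, and also without a filter.

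Cd36 was not above the limit on any of the 8 arrays. Its 2 probes read 2.04 to 7.79 units in CT26 and 2.08 to 4.75 in CT26-FL3, at the level of the dimmest spots, and no fold is given. Of 8 fat cell markers, Adipoq, Lep, Retn and Cidec were at or below the limit on every array, and Lipe alone was above it on all 8. Plin1, Cfd and Adrb3 were above it on some arrays, but on too few to be tested. The summed level was 211 to 237 units in CT26 and 141 to 209 in CT26-FL3. Outside this list, Fabp4, the fat cell type of binding protein, was above the limit on all 8 arrays, with means of 1748 units in CT26 and 1072 in CT26-FL3.

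Macrophage markers summed to 673 to 759 units in CT26 and 811 to 870 in CT26-FL3. This sum is weighted towards Cd68 (means of 477 units in CT26 and 618 in CT26-FL3), and the median log2 difference of the tested markers was 0.09. Of the 12 markers 7 were tested, of which Cd68 and Mrc1 were called higher and Lyz2 lower (markers called are named after their values were seen). Among all genes 48.8% were called. Lyz2 was above the limit in CT26 alone and at least 2.03-fold lower in CT26-FL3. As it passed the filter through CT26 alone, it had to differ. Adgre1, Clec4f, Timd4, Vsig4 and Cd163 were at or below the limit on every array. Hepatocyte markers summed to 108 to 226 units in CT26 and 128 to 142 in CT26-FL3, with Alb, Apoa2, Cyp2e1, Cps1, Fabp1 and Ahsg at or below the limit on every array. Apoa1 was above it on all 8 arrays and was called higher in CT26-FL3 (0.24, limma adjusted p = 0.0251), the only call of 2 hepatocyte markers tested. Endothelial markers summed to 228 to 249.6 and 243 to 287 units, with Pecam1, Cdh5, Kdr and Lyve1 at or below the limit on every array and Stab2, Vwf and Eng above it on all 8. Of 4 endothelial markers tested Tie1 was called, at least 1.64-fold higher in CT26-FL3 and at or below the limit in CT26. Tie1 passed the filter through CT26-FL3 alone, so that it had to differ, and no p-value is given. The part of other cell types in the differences of the 9 measured genes was not tested.

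**Figure D3:**
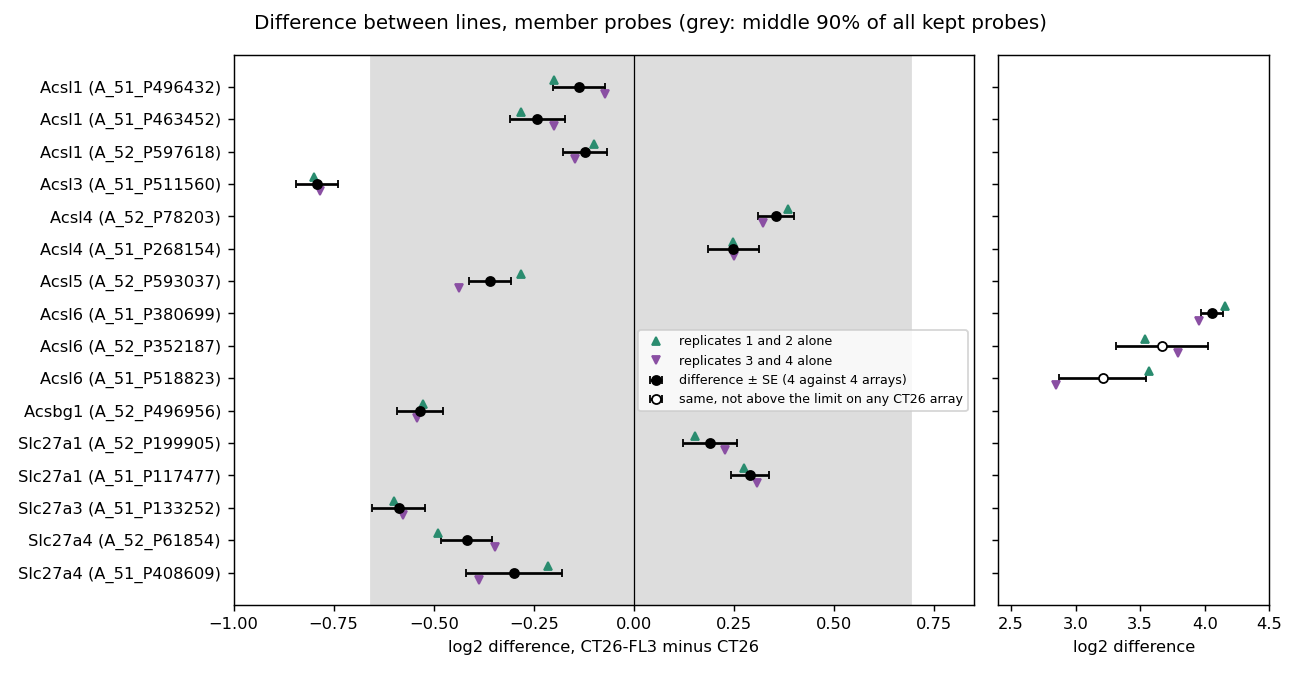
Log2 difference between the lines (x axis, CT26-FL3 minus CT26, in 2 panels of different range) for the 16 kept probes, with the SE of the fit (n = 4 per line) and the values from replicates 1 and 2 and from replicates 3 and 4 alone. The grey band, -0.66 to 0.69, holds the middle 90% of all kept probes. The 3 Acsl6 probes and the Acsl3 probe lie outside it, and open circles mark probes with no CT26 array above the limit, whose fitted value is no bound.

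The 13 kept probes of the genes other than Acsl6 differed by -0.79 to 0.35, and of these the Acsl3 probe alone lay outside the range that holds the middle 90% of all kept probes (-0.66 to 0.69). The median over the 16 member probes was -0.13, against -0.02 over all kept probes. The arrays fall into 2 sets whose deposited names share a number, replicates 1 and 2 of both lines and replicates 3 and 4 of both. All 16 probes had the same sign in both sets, which for the 2 dim Acsl6 probes was fixed by the filter. Outside the 2 dim Acsl6 probes the sets differed by at most 0.20. Within a line, the SD of the 14 member probes above the limit on all arrays ran from 0.02 to 0.24 on the log2 scale, with a median of 0.08. Over all 20852 such probes the median was 0.10, but of an SD pooled over both lines. The medians are thus of unlike measures and are not compared.

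The genes whose pattern was most like that of Acsl6 were Ido1, Ctss, Cck and Rcn3. Likeness was the root mean square distance over the 8 arrays between log2 values centred on each probe's mean, among the 18634 probes above the limit on all arrays that carry a proper gene symbol and belong to no member. The distances were 0.15, 0.19, 0.19 and 0.25, and these genes differed between the lines by 3.85, 3.97, 4.21 and 3.71. Ido1 degrades tryptophan, Ctss is a lysosomal protease and Cck is a peptide hormone gene. Closest to Acsl3 were Pqlc3, Tex2, Sphk1 and Rdh11, with distances of 0.03, 0.03, 0.04 and 0.04 and differences of -0.77, -0.76, -0.83 and -0.74. Sphk1 makes sphingosine 1-phosphate and Rdh11 is a retinol dehydrogenase. With 2 groups of arrays, likeness mostly reflects a line difference of the same size.

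The rest of the fatty acid pathway was described through 8 lists of 151 genes, each gene by its brightest kept probe and tested in the same limma fit with Benjamini-Hochberg adjustment over all kept probes. The 109 tested genes comprised 23 that rose, 33 that fell and 53 that did not pass, so 51.4% were called against 48.8% of all 15097 genes (23.8% higher and 25% lower). The lists were written with earlier results of these data known, so their counts are given as a description. The median difference was -0.05 over the listed genes and -0.01 over all genes.

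The acyl-CoA synthetases outside the 10 members were mostly not measurable. Of 16 genes, Acsbg2, Slc27a2, Slc27a5, Slc27a6, Acss1, Acss3, Acsm1, Acsm3, Acsm4 and Acsm5 were at or below the limit on every array, and Acsm2 was above it on 1. Of the 5 tested, 2 rose, 2 fell and 1 did not pass. Acss2, which makes acetyl-CoA from acetate in the cytosol and nucleus, fell from 2383 ± 172 to 578 ± 28 units (mean ± SD, n = 4). Its log2 difference was -2.04 (SE 0.06, limma adjusted p = 8.17e-08), and its 3 kept probes gave -2.04 to -1.83. Aacs, which activates acetoacetate, fell by 0.87 (SE 0.07, limma adjusted p = 1.47e-05). Aasdh rose by 0.35 (limma adjusted p = 0.00289), although its other kept probe differed by 0.04. Acsf3, the mitochondrial malonyl-CoA synthetase, rose by 0.23 (limma adjusted p = 0.0192). The Acsf3 call was lost without CT26-FL3 replicate 2 (0.20) or replicate 4 (0.19), and with no filter.

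Proteins that bind fatty acids or acyl-CoA had 1 gene that rose, 3 that fell and 4 that did not pass of 8 tested. Fabp3, the heart type binding protein, fell by 1.64 (SE 0.08, limma adjusted p = 1.02e-06), from 195 ± 11 to 63.0 ± 6.7 units (SD, n = 4). Fabp4, the fat cell type, fell by 0.71 (SE 0.08, limma adjusted p = 0.000111), with -0.75 to -0.71 over its 3 kept probes. Acbd4 rose by 0.22 (limma adjusted p = 0.00969). The list median was -0.02.

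Thioesterases, which split acyl-CoA back into fatty acid and coenzyme A and so oppose the synthetases, had 3 genes that rose, 5 that fell and 4 that did not pass of 12. Mitochondrial Acot2 rose by 1.34 (SE 0.06, limma adjusted p = 6.13e-07), from 208 ± 8 to 527 ± 36 units (SD, n = 4). Its close relative, cytosolic Acot1, rose by 0.71 (SE 0.05, limma adjusted p = 1.08e-05). The sequences of Acot1 and Acot2 are so alike that their probes may bind both transcripts. Acot7, a cytosolic enzyme known from brain, fell by 0.89 (SE 0.07, limma adjusted p = 1.66e-05), and Acot10 fell by 0.32 (limma adjusted p = 0.00738). The list median was -0.09.

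**Figure D4:**
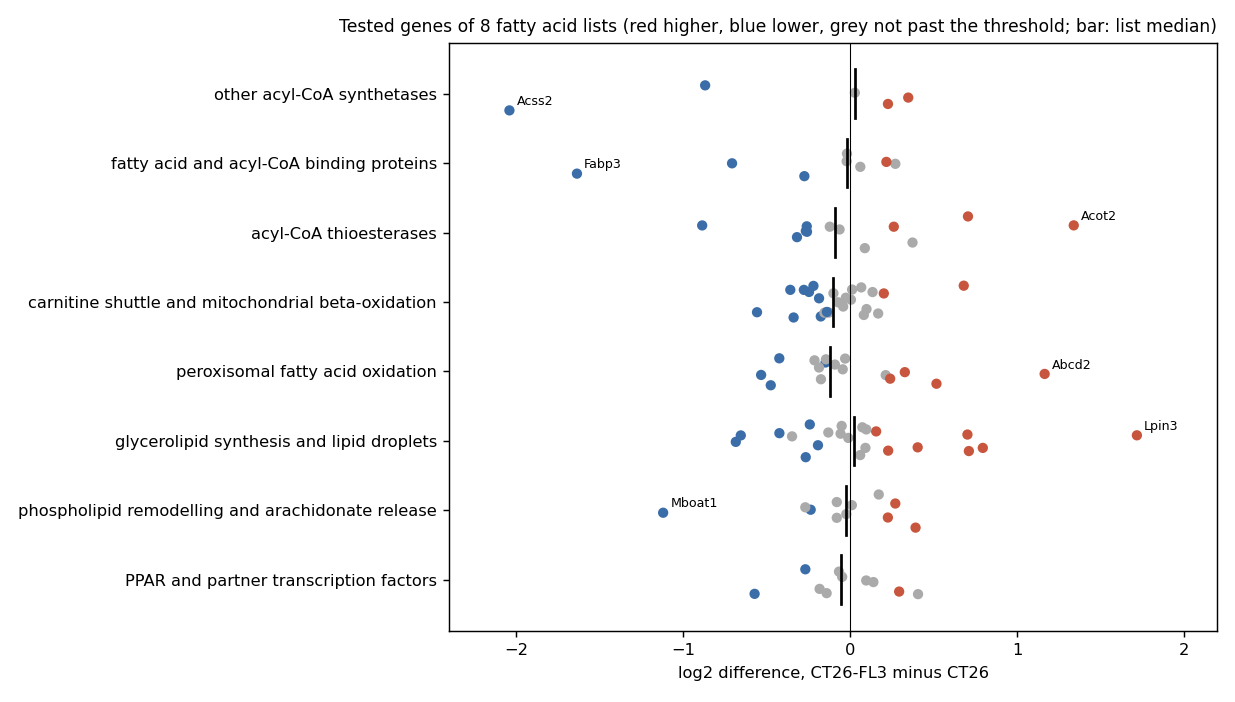
Log2 difference between the lines (x axis, CT26-FL3 minus CT26) of the 109 tested genes of 8 fatty acid lists, 1 point per gene at its brightest kept probe, coloured by the call of the limma fit, with a bar at each list's median. The list medians lie between -0.12 and 0.03. Genes beyond 1 in either direction are named, and Abcd2 is drawn at its fitted value although it has only a bound.

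The carnitine shuttle and mitochondrial beta-oxidation, which take long-chain acyl-CoA into mitochondria and break it down, had 2 genes that rose, 9 that fell and 14 that did not pass of 25. The carnitine acetyltransferase gene Crat fell by 0.56 (SE 0.06, limma adjusted p = 0.000119) and Acadvl, the very long-chain acyl-CoA dehydrogenase, fell by 0.36 (limma adjusted p = 0.00133). Acad10 rose by 0.68 (SE 0.06, limma adjusted p = 2.29e-05). Cpt1a, the gate of the shuttle, chosen after its value was seen, differed by -0.13 and did not pass. The list median was -0.10, and the number called fell from 11 to 5 with no filter on dim probes.

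Peroxisomal oxidation, which shortens very long and branched chains, had 4 genes that rose, 4 that fell and 8 that did not pass of 16, with a median of -0.12. Crot, which passes shortened chains on as carnitine esters, rose by 0.52 (SE 0.06, limma adjusted p = 0.000243). The peroxisomal importer gene Abcd2 was above the limit in CT26-FL3 alone and was at least 1.46-fold higher. It passed the filter through CT26-FL3 alone, so that it had to differ, and no p-value is given. Its call was lost within replicates 3 and 4. Amacr and Acox3 fell by 0.53 (limma adjusted p = 0.000241) and 0.48 (limma adjusted p = 0.00123).

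Glycerolipid synthesis and lipid droplet genes, which use acyl-CoA for storage, had 7 that rose, 6 that fell and 9 that did not pass of 22, with a median of 0.02. The phosphatidate phosphatase gene Lpin3 rose by 1.72 (SE 0.09, limma adjusted p = 9.75e-07), from 166 ± 15 to 544 ± 50 units (SD, n = 4). Plin2, the coat protein of lipid droplets, rose by 0.79 (SE 0.05, limma adjusted p = 5.17e-06). Agpat2, an acyltransferase of phosphatidic acid synthesis, fell by 0.68 (SE 0.04, limma adjusted p = 4.32e-06) and the hormone-sensitive lipase gene Lipe fell by 0.65 (SE 0.08, limma adjusted p = 0.000228). The number called was 8 with no filter in place of 13.

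Phospholipid remodelling and arachidonate release, the routes that ACSL4 products can enter, had 3 genes that rose, 2 that fell and 6 that did not pass of 11, with a median of -0.02. The lysophospholipid acyltransferase gene Mboat1 fell by 1.12 (SE 0.06, limma adjusted p = 1.23e-06), from 3530.5 ± 171 to 1625 ± 89 units (SD, n = 4). Lpcat3, which puts polyunsaturated chains into phospholipids, fell by 0.24 (limma adjusted p = 0.0105). The lysosomal phospholipase gene Pla2g15 rose by 0.39 (limma adjusted p = 0.000787) and Pla2g4b by 0.27 (limma adjusted p = 0.0229). The Pla2g4b call was lost without CT26 replicate 4 (0.26) or CT26-FL3 replicate 4 (0.24), and with no filter.

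Among the PPAR receptors, which sense fatty acids, and their partners, 1 gene rose, 2 fell and 7 did not pass of 10, with a median of -0.06. Rxra, the usual partner of the PPARs, fell by 0.57 (SE 0.04, limma adjusted p = 1.26e-05), and by 0.28 on its other kept probe. The coactivator gene Ppargc1a fell by 0.27 (limma adjusted p = 0.0170), but its second kept probe differed by 0.01, and the call was lost with the mean of its probes (-0.13) and with no filter. The liver X receptor gene Nr1h3 rose by 0.29 (limma adjusted p = 0.00563). Ppara was not tested, and Pparg, chosen after its value was seen, differed by -0.18 and did not pass.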

How the data were processed

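Arrays of 4 CT26 and 4 CT26-FL3 samples were assigned to lines by the names given as their descriptions. For every array the authors deposited a table of spot intensity, read with Agilent Feature Extraction per the submitters' processing notes, with no version given. Background had been removed from the deposited intensity before deposit, judged by negative controls with medians of 2.23 to 7.43 units against 21.1 to 24.4 in the background column. A second table that the authors deposited holds probe-centred log2 values, whose normalization between arrays stays unknown and which served as an alternative.

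Control spots (1639 of 45018 per array) and failed spots were left out, replicate spots were averaged on the log2 scale, and the 75th percentile of the array (808 to 1151 units) was taken off. Per array, the 153 negative control spots each carry a standard deviation, and 2.6 times the median of these served as detection limit. The 23068 probes above it on at least 4 of 8 arrays were fitted with limma 3.58.1 under R 4.3.3, by its lmFit and eBayes functions without a block. Tests were two-sided, adjusted by Benjamini-Hochberg over all kept probes and called at 0.05. Adjusted p-values in the text are limma's, with n = 4 per line. The script was tested on simulated data. The number of arrays limits the precision.

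Symbols came from the platform annotation, updated through gene identifiers to RefSeq GRCm38.p6 (32524 probes), with 814 probes named by accession, 140 as annotated, 7651 by the array's own name and 45 left unnamed for several genes. The files name no build, so coordinates are given for the RefSeq windows alone. Probe and protein sequences were not used here. Members and lists were chosen with earlier results of these data known. Named genes are all members and, in each list, up to 2 rises and 2 falls of largest size past the threshold whose lines did not overlap. They also include 4 genes of nearest pattern for the members of largest rise and fall. Alternatives changed scaling, dim values, filter, blocks, probe summary, variance model, failed spots, value source and the samples left out.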

Additional observations from a re-analysis of the deposited data

Results flagged for a closer look

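Among 90 groups of 4 arrays (kept member probes and named list genes in each line), 5 had a sample that stood far from the other 3 by Dixon's ratio, and chance flags about 1 in 20 groups. None was a member probe. Aasdh had 1061 units in CT26-FL3 replicate 3 against 1194 to 1200.4 in the others. Acbd4 had 17518 units in CT26 replicate 3 against 17020 to 17089. Plin2 had 58194 units in CT26 replicate 2 against 62933 to 63717. Pla2g4b had 369.9 units in CT26-FL3 replicate 4 against 335 to 339.98. Rxra had 6396 units in CT26-FL3 replicate 1 against 6537 to 6557.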

How the results depend on the processing

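No member probe and no named list gene changed direction in the alternatives that gave it a value, 20 to 23 for each. For the 2 dim Acsl6 probes and for Abcd2, which passed the filter through CT26-FL3 alone, the direction was fixed by the filter. Their calls are part of the 13 and the 56 given next. Probes past the threshold numbered 11131 over all kept probes, 13 among member probes and 56 among pathway list genes. Within replicates 1 and 2 they numbered 5756, 8 and 28, and within replicates 3 and 4 5728, 10 and 27, in fits of 2 arrays against 2. Acsl5 and the Slc27a1 probe A_51_P117477 lost their calls within replicates 1 and 2, and the called Acsl1 probe, the second Acsl4 probe and the Slc27a1 probe A_52_P199905 lost theirs within both sets. With 1 feature per gene 8 of 9 member genes passed, fewer by construction, where 7472 of all 15097 genes passed. Leaving out 1 sample gave 10056 to 10696 probes, 12 to 13 member probes and 47 to 53 list genes. The list counts ranged over all alternatives from 2 to 4 for other synthetases, 2 to 5 for binding proteins, 4 to 9 for thioesterases, 3 to 13 for mitochondrial and 4 to 11 for peroxisomal oxidation, 8 to 14 for glycerolipids, 1 to 6 for phospholipids and 1 to 4 for PPAR partners. With the replicate block, 10305 probes and 12 member probes passed. The sample names share numbers between the lines, but same-numbered samples deviated together weakly (r = 0.02, 0.09, -0.03 and 0.17), so the numbers were not taken as pairs. The titles number the CT26-FL3 samples 2 to 5 instead, which would pair them otherwise, and a block on those numbers was not run. Scaling by the median or by quantiles moved the median difference over all probes from -0.016 to -0.007 and -0.004. For dim probes such as Acsl6 in CT26, signal over background limits the size of the fold.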
